A study of Mus musculus with 6 samples.

Results

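The genes described here are 10 components of the MHC class I antigen presentation pathway: the heavy chains H2-K1 and H2-D1, the light chain B2m, the peptide transporter subunits Tap1 and Tap2, the bridging protein Tapbp, the immunoproteasome subunits Psmb8, Psmb9 and Psmb10, and the transactivator Nlrc5. They were taken by name from the deposited gene table, which holds 22483 genes, and all 10 were found in it and kept for testing. The libraries came from stromal cells of skeletal muscle of Swiss white mice, 8 to 12 weeks old, an outbred stock. Cells without CD45 (leukocytes), CD31 (endothelium) and CD11b (myeloid cells) on their surface were sorted by CD140a, the protein of Pdgfra, and Sca1, the protein of Ly6a. The injured group was muscle taken 3 days after cardiotoxin, a snake venom toxin that destroys myofibers, injected at 20 uM, and the control group was untreated contralateral muscle of the same mice. Each group has 3 libraries, 1 from each of the subpopulations CD140a(-)/Sca1(+) and CD140a(+)/Sca1(-) and from the double positive CD140a(+)/Sca1(+), so the 6 libraries hold no replicate of any subpopulation in any state. How many mice entered a library is not given in the sources used here, the labels and methods name the tibialis anterior while the study's results name other hind limb muscles, and digested cells spent hours at body temperature before the sort.

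MHC class I molecules carry short peptides from inside the cell to its surface, where cytotoxic T cells read them. Peptides are cut by the proteasome, pumped into the endoplasmic reticulum by the transporter made of Tap1 and Tap2, and loaded with the help of Tapbp (tapasin) onto a heavy chain paired with B2m (beta-2-microglobulin). Interferon-gamma replaces the constitutive catalytic subunits Psmb5, Psmb6 and Psmb7 by Psmb8, Psmb9 and Psmb10, which form the immunoproteasome, and Nlrc5 switches on many genes of the pathway. Nearly all nucleated cells carry class I molecules, while immunoproteasomes are most abundant in cells of the immune system and in cells exposed to interferon.

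Of the 10 members, 7 lie in the major histocompatibility complex on chromosome 17 (GRCm38, GENCODE M21). Psmb9 (34181987 to 34187764, minus strand), Tap1 (34187553 to 34197225), Psmb8 (34197721 to 34201454) and Tap2 (34203527 to 34216321) follow each other without another protein-coding gene between them, and Tapbp (33915899 to 33929292), H2-K1 (33996017 to 34000347, minus strand) and H2-D1 (35262730 to 35267499) lie on either side. B2m is on chromosome 2 (122147686 to 122153083), and Nlrc5 (94434356 to 94527272) and Psmb10 (105935735 to 105938444, minus strand) are on chromosome 8.

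The 5 promoter stretches below, of 6 members, are shown because Tap1, Psmb8 and Psmb9 differed in the same directions in the results below and because the heavy chain promoters resemble each other. They are RefSeq sequences of GRCm38.p6 on the strand of the gene, and end 1 base before the RefSeq start. In H2-K1 (chr17:34000348-34000527, minus strand) and H2-D1 (chr17:35262914-35263093, plus strand) capitals mark, in this order, the kappa B element GGGNNTTCC, the CRE core TGACG, and Y boxes (CCAAT, or its complement ATTGG):
H2-K1: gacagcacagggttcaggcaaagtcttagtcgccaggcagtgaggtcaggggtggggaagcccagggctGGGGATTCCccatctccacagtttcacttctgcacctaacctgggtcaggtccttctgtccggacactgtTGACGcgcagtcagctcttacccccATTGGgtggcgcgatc
H2-D1: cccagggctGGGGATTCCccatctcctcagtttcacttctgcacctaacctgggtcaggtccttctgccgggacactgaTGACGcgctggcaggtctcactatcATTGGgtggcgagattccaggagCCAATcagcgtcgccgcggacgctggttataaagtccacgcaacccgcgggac
In B2m (chr2:122147507-122147686, plus strand) capitals mark an element like the interferon-stimulated response element (ISRE), GAAANNGAAA, then a CRE core and a Y box, and in Psmb8 (chr17:34198075-34198194, plus strand) they mark the GAS element, TTCNNNGAA:
B2m: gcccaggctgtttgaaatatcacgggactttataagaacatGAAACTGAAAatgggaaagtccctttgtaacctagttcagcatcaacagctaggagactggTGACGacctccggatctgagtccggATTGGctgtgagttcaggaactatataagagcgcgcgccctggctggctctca
Psmb8: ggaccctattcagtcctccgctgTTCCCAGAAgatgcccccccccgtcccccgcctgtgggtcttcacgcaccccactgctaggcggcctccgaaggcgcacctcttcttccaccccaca
The last stretch is all of the 225 bases between the RefSeq starts of Psmb9 and Tap1, which are read in opposite directions from a shared promoter (chr17:34187331-34187555, shown on the strand of Tap1), with a Y box and a CRE core in capitals:
Tap1 and Psmb9: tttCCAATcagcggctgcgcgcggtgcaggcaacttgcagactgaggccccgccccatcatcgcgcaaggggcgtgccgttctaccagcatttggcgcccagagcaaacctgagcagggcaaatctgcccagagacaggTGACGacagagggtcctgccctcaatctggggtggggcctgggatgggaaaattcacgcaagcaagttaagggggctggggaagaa

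The promoter table gave entries for 8 of the 10 members, each of 300 bases that begin 250 before the start, and both strands were searched. A Y box was in 6 of the 8, against 37.4% of all 32851 promoters of that length, and a CRE core in 5, against 20.8%. The kappa B element was in 2 members, H2-K1 and H2-D1, against 5.82% of all promoters. The ISRE-like element was in 1 member, B2m (3.44% of all promoters), and the GAS element in 1, Psmb8 (8.3%). Only the letters given above were searched. Interferon response elements with other letters, in H2-K1 and H2-D1 as in any promoter, would be missed. Psmb9 and Tap1 share their matches, since their entries overlap, and the matches are letters in a window, not measured binding.

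**Figure D1:**
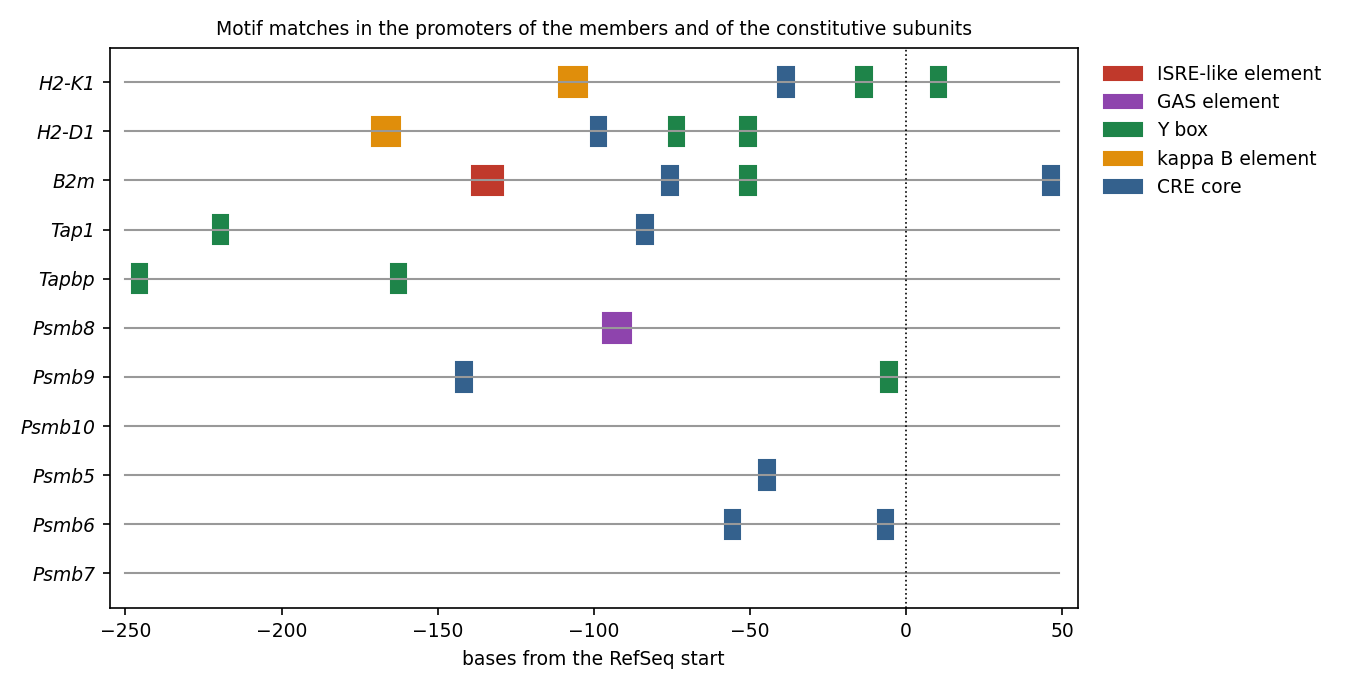
Position of motif matches in RefSeq promoters of 8 members and of the constitutive subunits Psmb5, Psmb6 and Psmb7; the horizontal axis is the distance from the RefSeq start in bases and colours stand for the 5 motifs. The kappa B element of H2-K1 begins 111 bases and that of H2-D1 171 bases before the start, and no match was found for Psmb10 and Psmb7.

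Levels are given as normalized counts, recovered from the deposited log2 values and scaled by the authors for library depth. Reads of this assay start at transcript ends, so counts were not divided by gene length. Estimated depth ran between 2094353 and 14173590 reads a library, and 3 reads, the limit used where a gene is listed at 0, equalled 0.44 to 2.94 normalized counts. Intervals given with folds are exact 95% binomial intervals that cover counting error only. The injured CD140a(+)/Sca1(-) library, the shallowest, stands apart. Of 5274 genes that reached 20 normalized counts in all the other 5 libraries, 928 (17.6%) were at 0 in it, against at most 0.0524% in any other library. In it 6 of the 10 members were at 0, beside 69.1% of all genes of the table, so the members were not at 0 more often than other genes. Ly6a followed the sort, with 1176.6 normalized counts in injured and 5850 in control CD140a(-)/Sca1(+), 2.09 in injured and 70.4 in control CD140a(+)/Sca1(-), and 4098.5 in injured and 252.8 in control CD140a(+)/Sca1(+). Pdgfra did not follow CD140a, with 335 in injured and 211.1 in control CD140a(-)/Sca1(+), 203.4 in injured and 33.6 in control CD140a(+)/Sca1(-), and 1240 in injured and 26.3 in control CD140a(+)/Sca1(+), so that among the controls the CD140a(-) library had the most. Of the sorted populations, the study reports the lowest enrichment for control CD140a(+)/Sca1(+). The sort labels are used below as names of the libraries, and results with and without the injured CD140a(+)/Sca1(-) library are given where they differ.

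H2-D1 and B2m were the most abundant members in every library. H2-D1, a classical heavy chain, had 1204.4 normalized counts in injured and 2435.7 in control CD140a(-)/Sca1(+), 1236.8 in injured and 774.9 in control CD140a(+)/Sca1(-), and 1361.5 in injured and 3948.6 in control CD140a(+)/Sca1(+). The injured libraries lay close together, and the control libraries both above and below them. B2m, the light chain that pairs with class I heavy chains, had 1406.5 in injured and 3399.8 in control CD140a(-)/Sca1(+), 915.7 in injured and 620.6 in control CD140a(+)/Sca1(-), and 2072.9 in injured and 2010 in control CD140a(+)/Sca1(+). Both genes were thus lower after injury in CD140a(-)/Sca1(+) (2.02-fold, interval 1.97 to 2.08, for H2-D1, and 2.42-fold, 2.36 to 2.48, for B2m) and higher in CD140a(+)/Sca1(-) (1.6-fold, 1.47 to 1.73, and 1.48-fold, 1.35 to 1.62). In CD140a(+)/Sca1(+), H2-D1 was 2.9-fold lower (2.76 to 3.05), while B2m differed by 1.03-fold, with an interval of 0.979 to 1.09. Patl2, which overlaps B2m on the opposite strand, was at 0 in every library.

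H2-K1, the other classical heavy chain, had 99.5 normalized counts in injured and 308.2 in control CD140a(-)/Sca1(+), 94.7 in injured and 29.2 in control CD140a(+)/Sca1(-), and 116.7 in injured and 131.9 in control CD140a(+)/Sca1(+). The 3 injured libraries fell within the range of the controls. The ratio of H2-D1 to H2-K1 was 12.1 in injured and 7.9 in control CD140a(-)/Sca1(+), 13.1 in injured and 26.6 in control CD140a(+)/Sca1(-), and 11.7 in injured and 29.9 in control CD140a(+)/Sca1(+). Both counts carry a limit: in the last 300 bases of the longest GENCODE coding transcripts, where these reads fall, H2-D1 and H2-K1 matched over 127 bases at 92.1% identity, H2-D1 matched H2-T23 over 159 bases at 89.3%, and H2-K1 matched H2-Q7 over 259 bases at 81.9%. Reads of an outbred stock, whose class I alleles need not be those of the reference, could be split between them, and this was not tested.

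Among the proteins that deliver and load peptides, Tap1 followed the immunoproteasome described next. Tap1 had 30.9 normalized counts in injured and 159.7 in control CD140a(-)/Sca1(+), none in injured and 3.41 in control CD140a(+)/Sca1(-), and 70.2 in injured and 13.1 in control CD140a(+)/Sca1(+). It was 5.17-fold lower (4.45 to 6.05) after injury in CD140a(-)/Sca1(+) and 5.36-fold higher (3.11 to 9.78) in CD140a(+)/Sca1(+). Tap2, which pairs with Tap1 to make the pump, had 0.391 in injured and 32.4 in control CD140a(-)/Sca1(+), none in injured and 3.44 in control CD140a(+)/Sca1(-), and 4.25 in injured and 30.4 in control CD140a(+)/Sca1(+). Tap2 was lower after injury by 82.9-fold in CD140a(-)/Sca1(+) (3 against 173 estimated reads, interval 24.9 to 362.1) and by 7.14-fold (3.22 to 17.7) in CD140a(+)/Sca1(+). In CD140a(+)/Sca1(-) it had 0 against 5 estimated reads, too few to tell a direction. That 0 falls in the library that misses 17.6% of well-measured genes. In CD140a(+)/Sca1(+) the messages of the transporter pair thus lay in opposite directions, Tap1 higher and Tap2 lower after injury. Tapbp, which holds an empty class I molecule next to the transporter, had 52.8 in injured and 124.6 in control CD140a(-)/Sca1(+), none in injured and 47.8 in control CD140a(+)/Sca1(-), and 59.6 in injured and 48.4 in control CD140a(+)/Sca1(+). Its 0 in injured CD140a(+)/Sca1(-), at least 16.2-fold below the control, falls in the library that misses 17.6% of well-measured genes.

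The 3 immunoproteasome subunits spanned a wide range of levels. Psmb8 (LMP7), which takes the place of Psmb5, had 13.6 normalized counts in injured and 205.7 in control CD140a(-)/Sca1(+), none in injured and 5.14 in control CD140a(+)/Sca1(-), and 191.3 in injured and 5.3 in control CD140a(+)/Sca1(+). Psmb9 (LMP2), which takes the place of Psmb6, had 12.1 in injured and 105.1 in control CD140a(-)/Sca1(+), none in injured and 3.72 in control CD140a(+)/Sca1(-), and 73.9 in injured and 6.81 in control CD140a(+)/Sca1(+). For both genes the 2 high libraries were control CD140a(-)/Sca1(+) and injured CD140a(+)/Sca1(+), and the next highest library had 13.6 for Psmb8 and 12.1 for Psmb9. In CD140a(-)/Sca1(+), Psmb8 was 15.1-fold (12.2 to 18.9) and Psmb9 8.68-fold (6.87 to 11.1) lower after injury, and in CD140a(+)/Sca1(+) they were 36.1-fold (16.4 to 99.1) and 10.9-fold (5.15 to 24.6) higher. Psmb10 (MECL-1), which takes the place of Psmb7, had 4.97 in injured and 75.7 in control CD140a(-)/Sca1(+), 96.2 in injured and none in control CD140a(+)/Sca1(-), and 32.3 in injured and 5.3 in control CD140a(+)/Sca1(+). It was 15.2-fold lower (10.7 to 22.3) after injury in CD140a(-)/Sca1(+) and 6.1-fold higher (2.65 to 17.3) in CD140a(+)/Sca1(+), as its partners were, but it also had its highest level in injured CD140a(+)/Sca1(-), at least 49.9-fold above the control there, in the library where Psmb8 and Psmb9 were at 0. Psmb8 and Psmb10 each overlap an annotated antisense RNA at their transcript end, and whether counting used strand is not given in the sources used here.

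Nlrc5, the class I transactivator, was low in every library. It had 3.14 normalized counts in injured and 14.6 in control CD140a(-)/Sca1(+), none in either CD140a(+)/Sca1(-) library, and 7.83 in injured and 1.19 in control CD140a(+)/Sca1(+). These rest on 21 and 78 estimated reads in CD140a(-)/Sca1(+) and on 15 and 1 in CD140a(+)/Sca1(+), so the 4.65-fold lower level after injury in CD140a(-)/Sca1(+) (2.91 to 8.12) is better measured than the ratio of 6.6 in CD140a(+)/Sca1(+) (1.39 to 379.1).

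**Figure D2:**
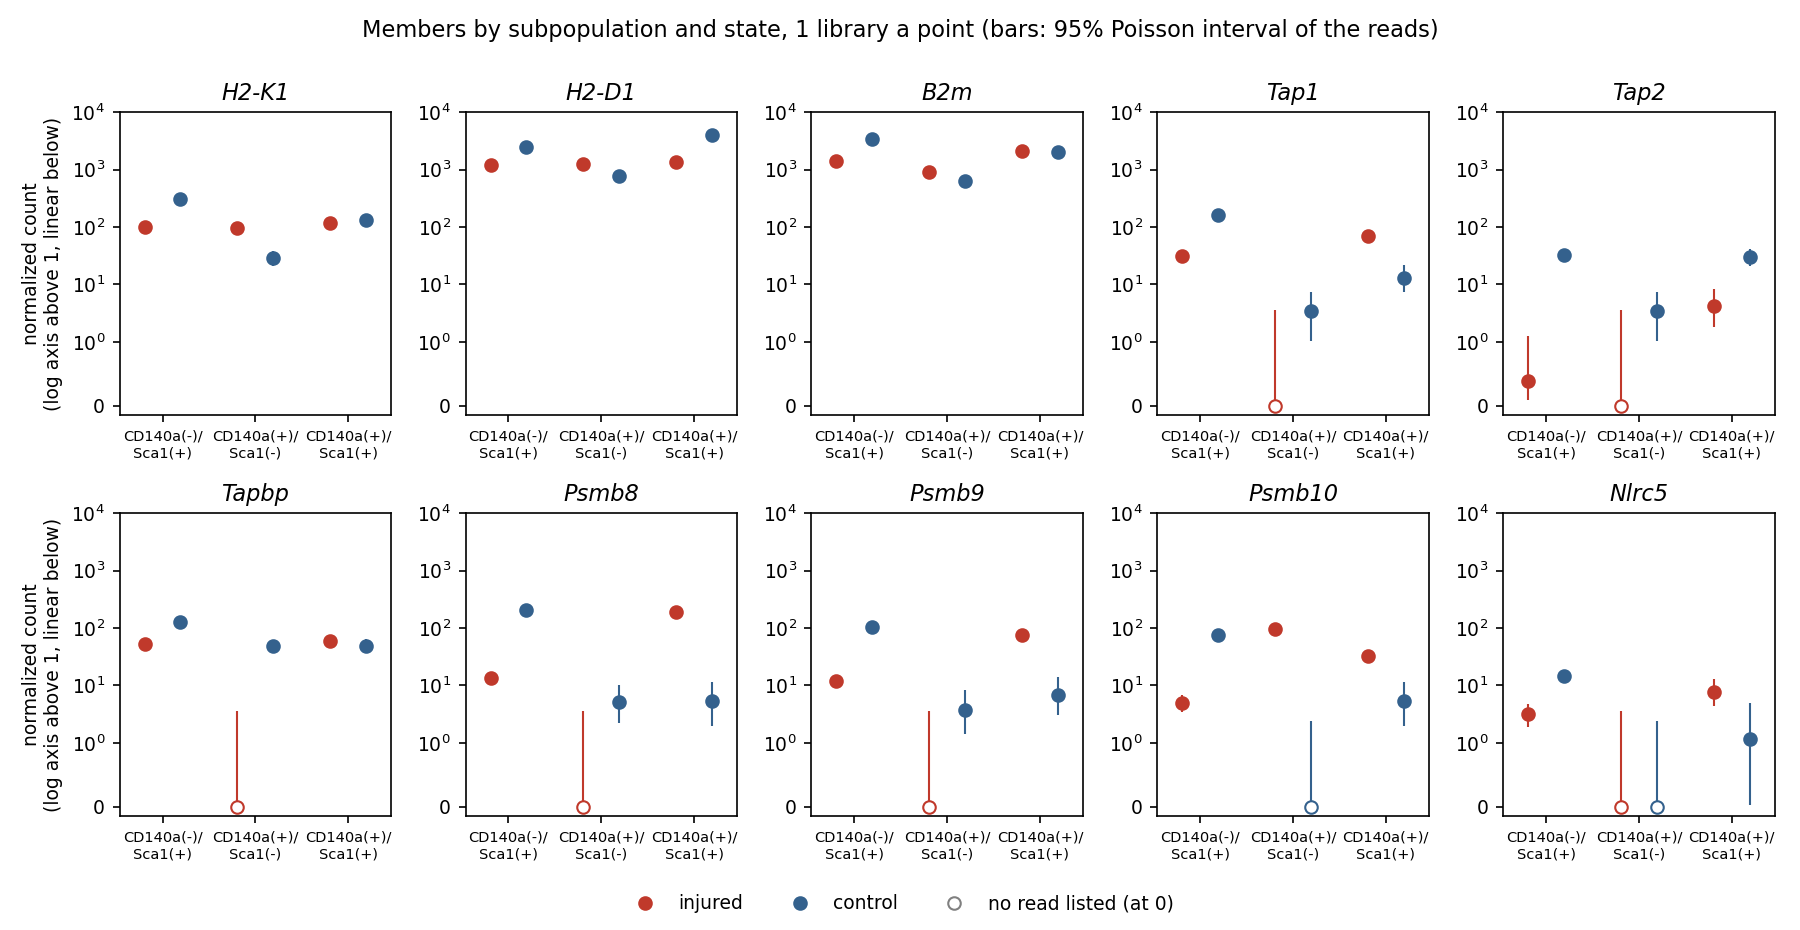
Normalized counts (vertical axis, logarithmic above 1 and linear below) of the 10 members in the 6 libraries, injured in red and control in blue, with 95% Poisson intervals of the estimated reads; open circles are at 0. No library had fewer than 620.6 normalized counts of H2-D1 or B2m, whereas Psmb8, Psmb9 and Tap1 were high in control CD140a(-)/Sca1(+) and injured CD140a(+)/Sca1(+).

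Whether injury changed the members across subpopulations was asked with limma over all 15532 genes tested, with subpopulation as block, on the deposited log2 scale. Genes were called at an unadjusted p under 0.05 and at least 3-fold. The study gives this limit in one place and a stricter p limit in another. In this fit no gene had a limma adjusted p under 0.05 (1241 had an unadjusted p under 0.05, and the lowest adjusted p was 0.192). Some other settings gave such genes, among them 15 with the filter on normalized counts, 10 by quantile normalization, 177 by median centring and 95 with limma's variance trend. Of the 10 members, 0 rose (background 2.3% of genes tested) and 1 fell (background 3.46%). The gene that fell was Tap2, by 1.73 on the log2 scale (standard error 0.53, limma adjusted p = 0.524). It was lower in 3 of 3 pairs, but the CD140a(+)/Sca1(-) pair was 0 against 5 estimated reads. At the stricter limit, an unadjusted p under 0.01, limma called 0 members in either direction, Tap2 included, and 144 genes of the table higher and 183 lower. The other changes ranged between -1.38 for Tapbp (standard error 0.76) and 1.05 for Psmb10 (standard error 1.23), with B2m at -0.22 (0.57), H2-D1 at -0.62 (0.61), H2-K1 at -0.10 (0.68) and Psmb8 at -0.23 (1.28). The median change of the members was -0.30, beside -0.33 for all genes tested. Without the CD140a(-)/Sca1(+) pair, Psmb10 was called higher (2.87, background 2.58%) and Tap2 was not called (-1.34); without the CD140a(+)/Sca1(+) pair, Tapbp (-2.20) and Psmb8 (-2.24) were called lower (background 3.62%) and Tap2 was not (-1.79). Without the CD140a(+)/Sca1(-) pair, which holds the library that stands apart, Tap2 stayed the 1 member called (background 2.65% lower), and Psmb10 (-0.52) and Psmb8 (0.30) had the opposite sign. Centring each library on its median moved the median of all genes to 0.39 and that of the members to 0.42, with 1218 genes called higher and 178 lower in place of 357 and 537, left Psmb10 as the 1 member called, higher, and turned 7 members with a change below 0, B2m and Psmb8 among them, to values above 0. Quantile normalization gave 459 higher and 440 lower, and called no member.

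The averages above combine opposite differences in single subpopulations, which compare 1 library with 1 library and carry no test. Within CD140a(-)/Sca1(+), 5 of 10 members were at least 3-fold lower on the deposited log2 scale (Tap1, Tap2, Psmb8, Psmb9 and Psmb10), against 4.35% of all genes, and 0 were at least 3-fold higher, against 1.97%. All 10 members were lower there, with a median of -1.78 beside -0.23 for all genes. Within CD140a(+)/Sca1(+), 3 were at least 3-fold higher (Tap1, Psmb8 and Psmb9), against 10.4% of all genes, and 1 at least 3-fold lower (Tap2), against 6.07%, with a median of 0.59 beside 0.11. Within CD140a(+)/Sca1(-), 1 was at least 3-fold higher (Psmb10; 8.31% of all genes) and 1 at least 3-fold lower (Tapbp; 29.4% of all genes), with a median of -0.53 beside -0.76. Tap1, Psmb8 and Psmb9 were at least 3-fold lower in injured CD140a(-)/Sca1(+) and at least 3-fold higher in injured CD140a(+)/Sca1(+). These are 3 of the 10 members, and 97 of the 15532 genes tested (0.625%) did the same. Psmb10 missed this limit in CD140a(+)/Sca1(+) with a difference of 1.55 on the log2 scale. With log2 of normalized count plus 1, 5 members passed the 3-fold limit upward in CD140a(+)/Sca1(+) and 5 downward in CD140a(+)/Sca1(-). Centring on medians gave 5 upward and 0 downward in CD140a(+)/Sca1(-). The share of all genes past the limit in these settings is not given here, so these counts show nothing particular to the members.

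**Figure D3:**
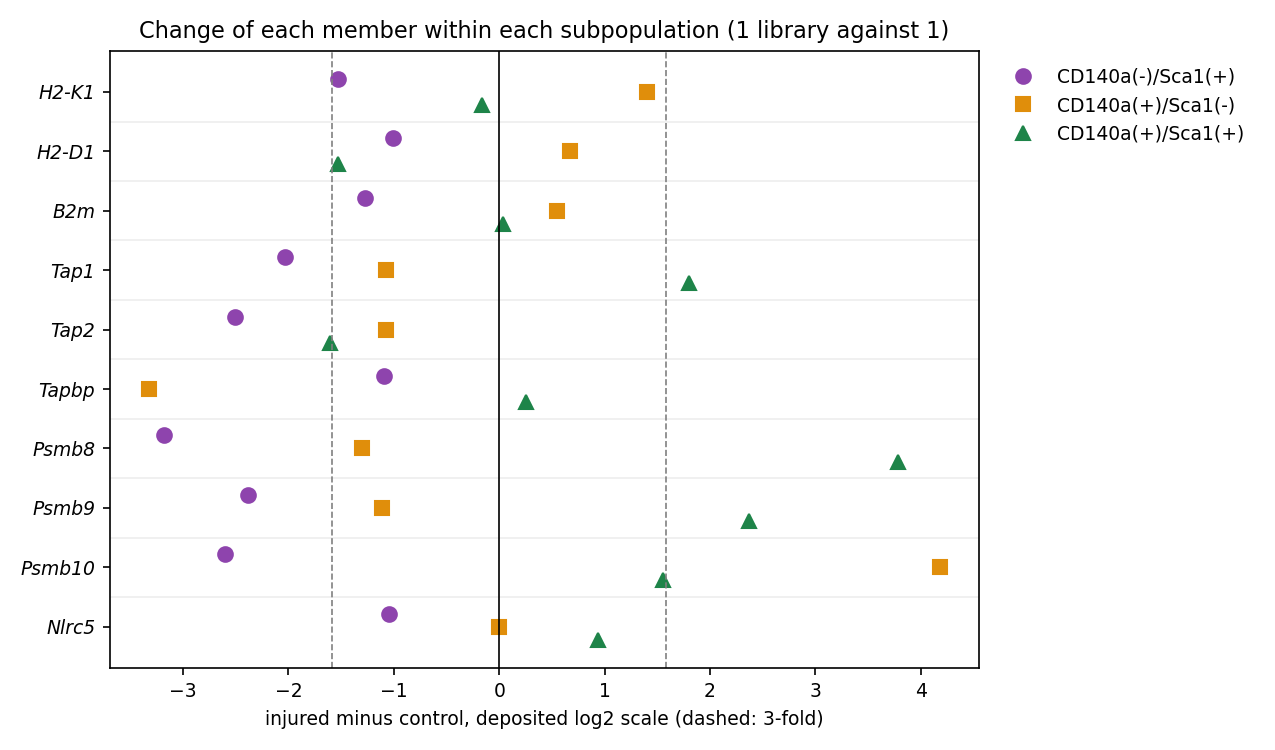
Difference between the injured and the control library (horizontal axis, deposited log2 scale) for each member within each subpopulation, with dashed lines at 3-fold. Psmb8 lay at 3.78 in CD140a(+)/Sca1(+) but at -3.18 in CD140a(-)/Sca1(+), where all 10 members were below 0.

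Which subpopulation carried the pathway was asked with the same fit, each subpopulation against the mean of the other 2, with state as block. In CD140a(-)/Sca1(+), 1 of the 10 members was called higher (background 1.33%) and 0 lower (background 0.283%). It was Tap1, with a log2 difference of 2.13 (standard error 0.86, limma adjusted p = 0.998). All 10 differences were above 0, with a median of 1.0 beside 0.20 for all genes, and the call was lost without the control CD140a(-)/Sca1(+) library (0.93) and without the control CD140a(+)/Sca1(+) library (1.29). Without the injured CD140a(-)/Sca1(+) library Psmb10 (3.22) was called beside Tap1 (background 1.24%), without the control CD140a(+)/Sca1(-) library Tapbp (2.14; background 9.99%), and without the injured CD140a(+)/Sca1(+) library Psmb8 (3.18) and Psmb9 (2.53; background 2.74%). In CD140a(+)/Sca1(-), 2 members were called lower (background 3.73%) and 0 higher (background 0.657%): Tap1 at -2.83 (standard error 0.86, limma adjusted p = 0.615) and Tapbp at -2.06 (standard error 0.81, limma adjusted p = 0.615). All 10 differences were below 0, with a median of -1.4 beside -0.46 for all genes. Without the injured CD140a(+)/Sca1(-) library, the one that stands apart, 6 members were called lower (background 2.03%), namely H2-K1 (-2.42), H2-D1 (-1.98), B2m (-2.05), Tap1 (-2.35), Tap2 (-1.76) and Psmb10 (-2.60), and Tapbp was not (-0.61). The count was 4 without the control CD140a(+)/Sca1(-) library, when 27.9% of all genes were called lower, and 4 without the control CD140a(+)/Sca1(+) library (background 7.61%). It was 3 without the injured CD140a(-)/Sca1(+) library (background 1.32%), 1 without the injured CD140a(+)/Sca1(+) library (1.27%) and 0 without the control CD140a(-)/Sca1(+) library (2.11%). In CD140a(+)/Sca1(+), 0 members were called higher (background 1.32%) and 0 lower (background 0.47%), by limma, with 0 at an unadjusted p under 0.05 and a median of 0.68 beside 0.24. Without the control CD140a(+)/Sca1(+) library, Psmb8 (4.09), Psmb9 (2.89) and Tap1 (2.37) were called higher there (background 3.22%).

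In resting muscle alone, 4 of the 10 members (Tap1, Psmb8, Psmb9 and Psmb10) were at least 3-fold higher in control CD140a(-)/Sca1(+) than in both other control libraries, against 3.01% of all genes tested. Psmb8 in control CD140a(-)/Sca1(+) was 40.0-fold above control CD140a(+)/Sca1(-) and 38.8-fold above control CD140a(+)/Sca1(+), and Psmb9 28.3-fold and 15.4-fold. The lower levels rest on 8 and 6 estimated reads for Psmb8 and on 6 and 8 for Psmb9, so these folds are imprecise. B2m was 5.48-fold and 1.69-fold, H2-K1 10.6-fold and 2.34-fold, and H2-D1 3.14-fold and 0.617-fold. The resting libraries thus spanned a narrower range in the heavy and light chains than in these subunits. Across all 6 libraries, 8 of the 10 members had their highest level in control CD140a(-)/Sca1(+). The exceptions were H2-D1 (control CD140a(+)/Sca1(+)) and Psmb10 (injured CD140a(+)/Sca1(-)). Control CD140a(-)/Sca1(+) also had the most genes with reads, 16140. The share of all genes highest in it is not given here, so this count is not shown to be particular to the members.

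The constitutive subunits give the levels against which the immunoproteasome is read within a library. Psmb5 had 117.7 normalized counts in injured and 185 in control CD140a(-)/Sca1(+), 387 in injured and 523.1 in control CD140a(+)/Sca1(-), and 239 in injured and 349.2 in control CD140a(+)/Sca1(+), a narrower range than that of Psmb8. Psmb8 made up 10.4% of the summed Psmb8 and Psmb5 counts in injured and 52.6% in control CD140a(-)/Sca1(+), none in injured and 0.973% in control CD140a(+)/Sca1(-), and 44.5% in injured and 1.49% in control CD140a(+)/Sca1(+). Psmb9 made up 33.2% of Psmb9 and Psmb6 in injured and 45.9% in control CD140a(-)/Sca1(+), 2.48% in control CD140a(+)/Sca1(-), where both were at 0 in the injured library, and 43.8% in injured and 8.69% in control CD140a(+)/Sca1(+). Psmb10 made up 38.6% of Psmb10 and Psmb7 in injured and 86.0% in control CD140a(-)/Sca1(+), 100.0% in injured and none in control CD140a(+)/Sca1(-) (96.2 Psmb10 and no Psmb7 counts, against no Psmb10 and 8.35 Psmb7 counts), and 83.6% in injured and 27.3% in control CD140a(+)/Sca1(+). On the log2 scale the ratio of Psmb8 to Psmb5, injured minus control, was -3.27 in CD140a(-)/Sca1(+) and 5.72 in CD140a(+)/Sca1(+), that of Psmb9 to Psmb6 -0.78 and 3.03, and that of Psmb10 to Psmb7 -3.28 and 3.76. The CD140a(+)/Sca1(-) pair gave no ratio because a count in each was 0, so 2 pairs remained, with means of 1.23, 1.13 and 0.24, and the exact sign-flip test (two-sided, smallest possible p 0.5) gave p = 1.0 for each (1.0 after adjustment over 3). With 1 added to each normalized count all 3 pairs could be used, and the means were 0.04 for Psmb8, 2.37 for Psmb9 and 3.39 for Psmb10, with the CD140a(+)/Sca1(-) pair at -2.18, 4.96 and 9.83. On the deposited log2 scale these means were 0.29, 1.73 and 1.91. Psmb7 had at most 14.1 normalized counts in any library, so its ratio rests on few reads. Over the libraries the means were 300.2 for Psmb5, 76.7 for Psmb6 and 8.18 for Psmb7. Whether the assay counts different genes equally well was not tested. The shares are therefore shares of counts, not of proteasomes.

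**Figure D4:**
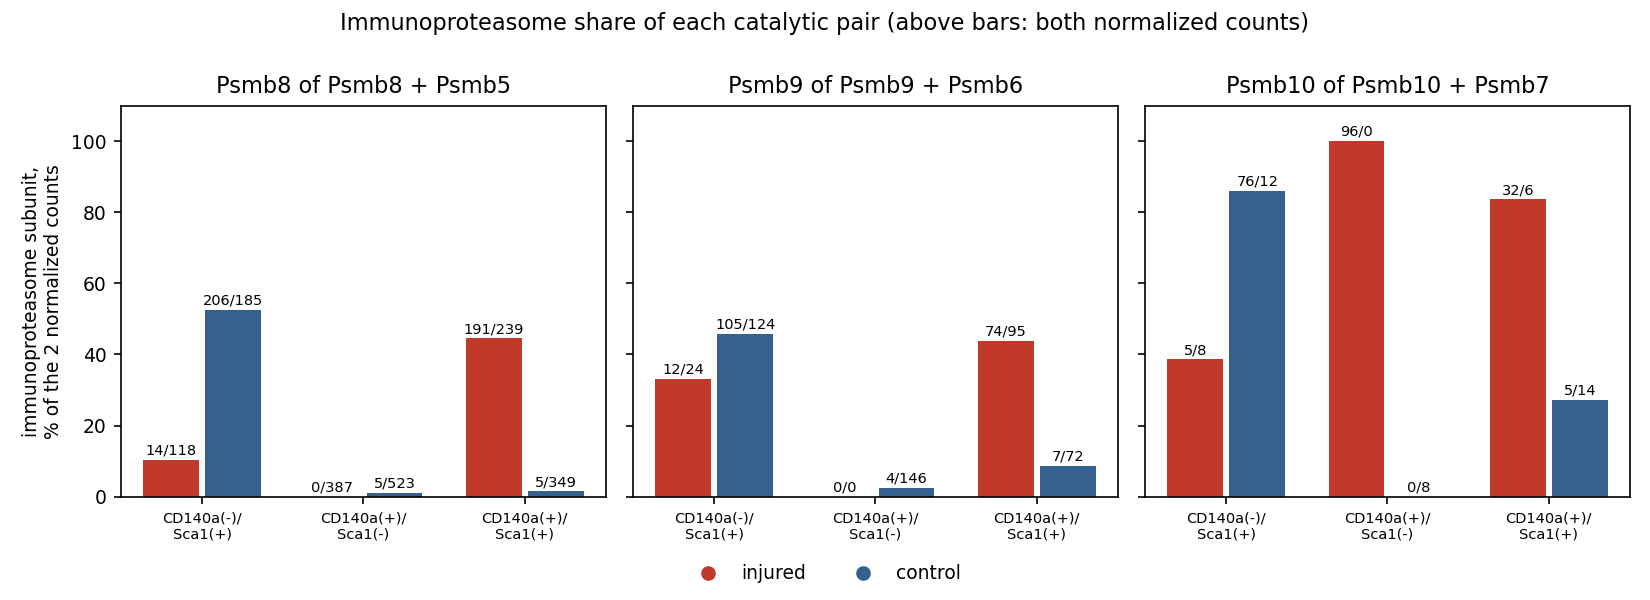
Share of the immunoproteasome subunit in each catalytic pair (vertical axis, percent of the summed normalized counts of both subunits), injured left of control in each subpopulation, with both counts above the bar. The share of Psmb8 was 52.6% in control CD140a(-)/Sca1(+) and 44.5% in injured CD140a(+)/Sca1(+), and 10.4% or less in the other 4 libraries.

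No gene of the companion lists that load peptides or build the proteasome passed the test, which called 2.3% of all genes tested higher and 3.46% lower. Of 12 loading helpers, among them the chaperones Calr, Canx and Hspa5 and the trimming enzyme Erap1, 0 were called by limma in injured against control muscle in either direction (0 at an unadjusted p under 0.05, median -0.17). Calr, which binds newly made heavy chains, had 4471 normalized counts in injured and 2460.4 in control CD140a(-)/Sca1(+), 3233.8 in injured and 3269.1 in control CD140a(+)/Sca1(-), and 3053.3 in injured and 1302 in control CD140a(+)/Sca1(+). The other 3 helpers of highest mean were Hspa5, between 5969.7 and 20763.2 over the libraries, Canx, between 1071.3 and 1915.3, and Hsp90b1, between 500.1 and 1468.5. Of 13 nonclassical class I heavy chains, 0 were called by limma (2 at an unadjusted p under 0.05, median -0.31). H2-Q6 had 32.7 in injured and 114.6 in control CD140a(-)/Sca1(+), 6.6 in injured and 11.3 in control CD140a(+)/Sca1(-), and 30 in injured and 143.6 in control CD140a(+)/Sca1(+), the same order of libraries within subpopulations as H2-D1 had in CD140a(-)/Sca1(+) and CD140a(+)/Sca1(+). Fcgrt, the heavy chain of the neonatal Fc receptor, had the opposite order, with 123.8 in injured and 49.7 in control CD140a(-)/Sca1(+), 163.6 in injured and 77.3 in control CD140a(+)/Sca1(-), and 142.6 in injured and 42.6 in control CD140a(+)/Sca1(+). H2-Q7 and H2-T10, the others of highest mean, had at most 95.2 in any library. Of 9 proteasome activators and assembly factors, 0 were called by limma (0 at an unadjusted p under 0.05, median -0.39). Psme2, a subunit of the interferon-inducible activator PA28, had 14.9 in injured and 158.7 in control CD140a(-)/Sca1(+), none in injured and 52.9 in control CD140a(+)/Sca1(-), and 116.7 in injured and 41.3 in control CD140a(+)/Sca1(+). Pomp, which helps to assemble new proteasomes, had 1711 in injured and 3252.9 in control CD140a(-)/Sca1(+), 1734.7 in injured and 1932.3 in control CD140a(+)/Sca1(-), and 2963.1 in injured and 887 in control CD140a(+)/Sca1(+). Both were lower in CD140a(-)/Sca1(+) and higher in CD140a(+)/Sca1(+) after injury, the directions of Psmb8. The other 2 of highest mean did not share them. Psme4, which encodes the activator PA200, had 60.4 in injured and 26.1 in control CD140a(-)/Sca1(+), 133.1 in injured and 170.9 in control CD140a(+)/Sca1(-), and 38.6 in injured and 100.1 in control CD140a(+)/Sca1(+). Psme3, which encodes PA28 gamma, differed little, with 130.8 in injured and 142.5 in control CD140a(-)/Sca1(+), 169.1 in injured and 172 in control CD140a(+)/Sca1(-), and 124 in injured and 145.1 in control CD140a(+)/Sca1(+).

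Of 23 genes of interferon-gamma signalling and class I regulation, 22 were tested, 1 rose (Ifngr2, a chain of the interferon-gamma receptor, 1.95, standard error 0.69, limma adjusted p = 0.579) and 1 fell (Rfxank, a part of the RFX complex at class I and class II promoters, -1.59, standard error 0.61, adjusted p = 0.605). Irf9, a transcription factor of interferon signalling, had 201.1 in injured and 814.2 in control CD140a(-)/Sca1(+), 343.7 in injured and 93.1 in control CD140a(+)/Sca1(-), and 366 in injured and 148.9 in control CD140a(+)/Sca1(+). The others of highest mean were Jak1, between 435.8 and 1886.4 over the libraries, Nfkb1, between 140.7 and 453.4, and Creb1, between 212.7 and 324. Of 14 interferon-induced GTPases and guanylate-binding proteins, which act in defence inside cells, 1 fell (Igtp, -1.85, standard error 0.71, limma adjusted p = 0.605) and 0 rose. Beside the counts of both lists, 2.3% of all genes tested rose and 3.46% fell. Within CD140a(-)/Sca1(+), 13 of the 14 were at least 3-fold lower after injury (median -3.05), against 4.35% of all genes tested. Within CD140a(+)/Sca1(+), 9 were at least 3-fold higher, against 10.4%, and 0 lower, against 6.07% (median 1.85). Within CD140a(+)/Sca1(-), 3 were at least 3-fold higher, against 8.31%, and 2 lower, against 29.4% (median -0.32). Their sum was 452.5 in injured and 77.7 in control CD140a(+)/Sca1(-). Irgm2, the one of highest mean, had 143.5 in injured and 803.7 in control CD140a(-)/Sca1(+), 303.1 in injured and 10.4 in control CD140a(+)/Sca1(-), and 174.4 in injured and 31.2 in control CD140a(+)/Sca1(+), so it made up most of that injured sum. Iigp1 had 54.1 in injured and 1011.8 in control CD140a(-)/Sca1(+), none in injured and 2.57 in control CD140a(+)/Sca1(-), and 244 in injured and 16.8 in control CD140a(+)/Sca1(+). Gbp7 and Gbp3, the others of highest mean, were also lower in injured CD140a(-)/Sca1(+) and higher in injured CD140a(+)/Sca1(+), and in CD140a(+)/Sca1(-) Gbp7 had none in injured and 5.01 in control, and Gbp3 16.4 in injured and 1.79 in control.

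The libraries also differed in messages of cells that the gate was meant to remove. Of 22 leukocyte markers, the summed level was 406.6 in injured and 885.3 in control CD140a(-)/Sca1(+), 888.7 in injured and 207.8 in control CD140a(+)/Sca1(-), and 298 in injured and 99.5 in control CD140a(+)/Sca1(+). The number listed at 0 was 6 and 0 in injured and control CD140a(-)/Sca1(+), 15 and 13 in CD140a(+)/Sca1(-), and 6 and 10 in CD140a(+)/Sca1(+). Of the 17 tested, 1 rose (background 2.3%), the myeloid lysozyme Lyz2 (2.2, standard error 0.56, limma adjusted p = 0.449). The neutrophil gene S100a9 was the 1 that fell (background 3.46%), by 2.36 (standard error 0.96, limma adjusted p = 0.623). Lyz2 had 176.3 in injured and 68 in control CD140a(-)/Sca1(+), 249.3 in injured and 21.8 in control CD140a(+)/Sca1(-), and 74.2 in injured and 7.06 in control CD140a(+)/Sca1(+). S100a9 had none in any injured library, 185.3 in control CD140a(-)/Sca1(+), 13.5 in control CD140a(+)/Sca1(-) and none in control CD140a(+)/Sca1(+). Tyrobp, a signalling adaptor of myeloid and natural killer cells, had 222 in injured CD140a(+)/Sca1(-), none in control CD140a(+)/Sca1(-) and at most 13.4 elsewhere. Csf1r, a receptor of macrophages, had between 49.2 and 175.4. Ptprc and Cd79a were named after their values were seen. Ptprc, which encodes CD45, had 2.5 in injured and 20.5 in control CD140a(-)/Sca1(+), none in either CD140a(+)/Sca1(-) library, and 0.533 in injured and 0.887 in control CD140a(+)/Sca1(+), and the B cell gene Cd79a had 1.61 in injured and 90.7 in control CD140a(-)/Sca1(+) and at most 6.18 elsewhere. The leukocyte sum was thus higher in the same state as Psmb8 in CD140a(-)/Sca1(+) and in CD140a(+)/Sca1(+). Injured CD140a(+)/Sca1(-) had a sum of 888.7 and no Psmb8 read, and control CD140a(-)/Sca1(+) had a sum of 885.3. The former library misses 17.6% of well-measured genes, and 15 of the 22 markers were at 0 in it, beside 69.1% of all genes. The 11 MHC class II genes summed to 97.2 in injured and 351 in control CD140a(-)/Sca1(+), 232.4 in injured and 12.5 in control CD140a(+)/Sca1(-), and 110.4 in injured and 13.4 in control CD140a(+)/Sca1(+). In injured CD140a(+)/Sca1(-) and injured CD140a(+)/Sca1(+) most of that sum was Ctss, a lysosomal protease, which rose (2.94, standard error 1.08, limma adjusted p = 0.586), while H2-Aa had 0.883 in injured CD140a(+)/Sca1(+) and 145.7 in control CD140a(-)/Sca1(+).

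Endothelial markers, 23 genes, summed to 363.4 in injured and 5824 in control CD140a(-)/Sca1(+), 210.9 in injured and 4089.2 in control CD140a(+)/Sca1(-), and 744.6 in injured and 40866.5 in control CD140a(+)/Sca1(+). Of the 23, 16 fell (median -2.84), against 3.46% of all genes tested. Fabp4 and Ednrb made up 89.5% of the sum in control CD140a(+)/Sca1(+). Without these 2 the sums were 274.3 in injured and 3054.9 in control CD140a(-)/Sca1(+), 54.8 in injured and 1035.5 in control CD140a(+)/Sca1(-), and 365.7 in injured and 4299.5 in control CD140a(+)/Sca1(+). Both sums were lower after injury in every subpopulation. Of 14 markers of fibro-adipogenic progenitors, the main stromal cells of muscle, 6 rose and 0 fell (median 1.52), of 12 pericyte and smooth muscle markers 1 rose and 3 fell, and of 9 tested myogenic markers 0 were called by limma (2 at an unadjusted p under 0.05). Of all genes tested, 2.3% rose and 3.46% fell. The part of leukocyte, endothelial and other cell type messages in the levels of the members was not tested. In bulk samples, fewer cells of a type and less RNA per cell cannot be told apart.

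**Figure D5:**
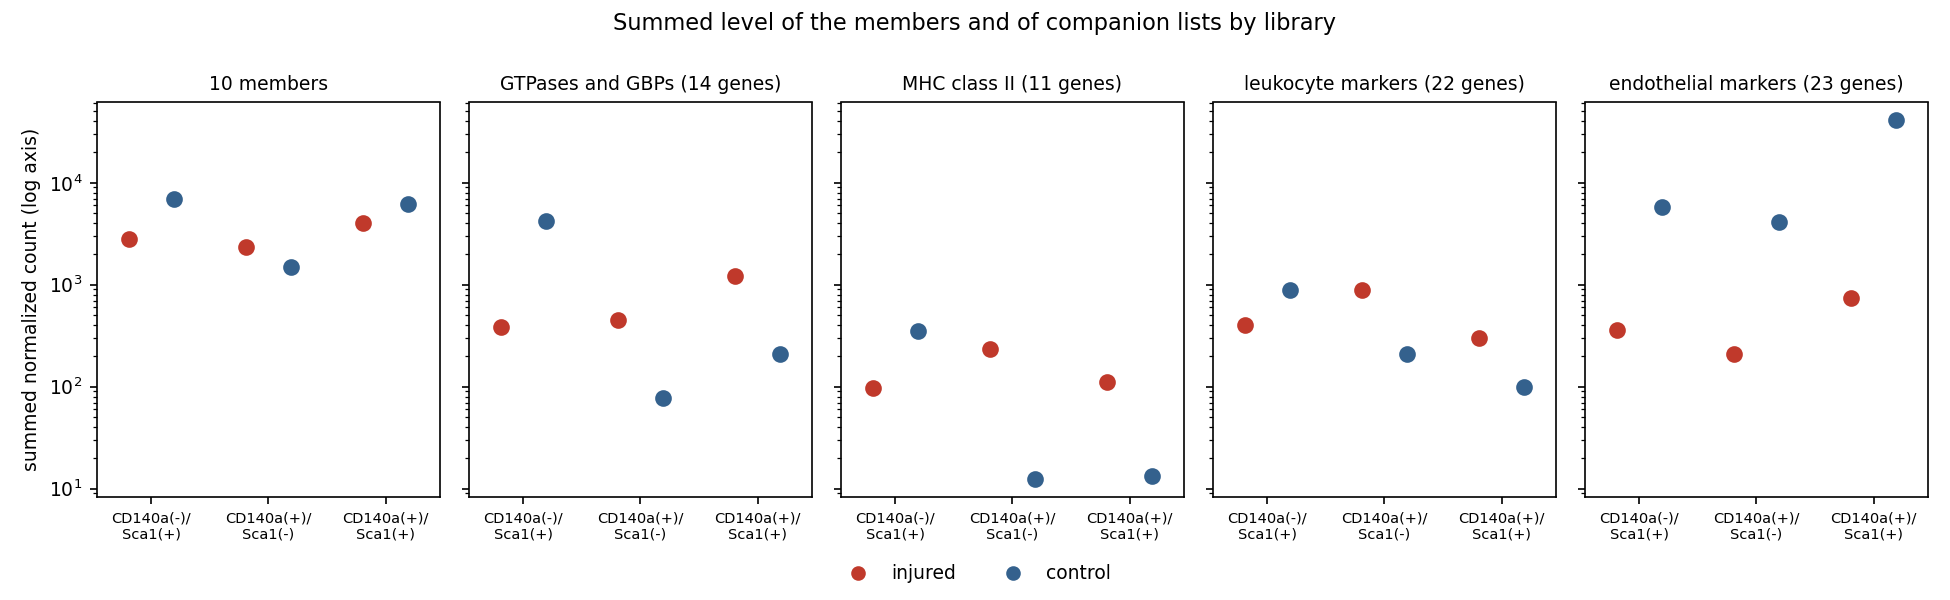
Summed normalized counts (vertical axis, logarithmic) of the 10 members and of 4 companion lists in the 6 libraries, injured in red left of control in blue. The sum of the GTPases and guanylate-binding proteins was 381.7 in injured and 4214 in control CD140a(-)/Sca1(+), 452.5 in injured and 77.7 in control CD140a(+)/Sca1(-), and 1214 in injured and 211.7 in control CD140a(+)/Sca1(+), while endothelial markers were lower in all 3 injured libraries.

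The genes whose levels over the 6 libraries were most like the mean of the standardized profiles of the members were found among 5258 tested genes whose mean over the libraries reached 50 normalized counts. The mean profile was highest in control CD140a(-)/Sca1(+) (1.21) and injured CD140a(+)/Sca1(+) (0.48) and lowest in control CD140a(+)/Sca1(-) (-0.87) and injured CD140a(+)/Sca1(-) (-0.82). Among the 8 genes nearest to it, by Pearson's r over 6 libraries that share depth and quality between genes, were Gm4070 (0.973), Shisa5 (0.970), Skap2 (0.948), Iigp1 (0.945), Rpl21 (0.944), Trim30a (0.944) and Cxcl11 (0.938). Cxcl11, an interferon-induced chemokine, had 4.97 in injured and 322 in control CD140a(-)/Sca1(+), none in either CD140a(+)/Sca1(-) library, and 120 in injured and 3.53 in control CD140a(+)/Sca1(+). Among the members, r with their own mean profile ran between 0.40 for Psmb10 and 0.97 for B2m.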

How the data were processed

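The 6 libraries were made with the QuantSeq 3' mRNA-Seq kit and read on Ion Proton chips. With STAR, the authors aligned reads to GRCm38 (mm10, Ensembl annotation), counted them per gene with BRB-seqtools and normalized them with DESeq2. The deposited values are variance stabilized log2 values, 1 column a library, with a floor of 2.57 for a gene with no read. Normalized counts were recovered by inverting that transformation, and reads per library were estimated from the step between low values, which were whole within 0.02 reads for 55.8% to 63.7% of low values, so no count model was used. Gene IDs were matched to symbols for 22453 of 22483 genes.

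Genes whose 80th percentile was under 8 after taking 2 to the power of the deposited value were left out, which left 15532. This is the first part of the study's filter; the second, on variation around each gene's median, was run only as an alternative chosen after seeing the data (at least 1.5-fold from the median in any library, 14444 genes), since the share of libraries it asks for is not given in the sources used here. limma 3.58.1 (R 4.3.3) was fitted to the deposited log2 values with subpopulation and state as terms, leaving 2 residual degrees of freedom and 4.11 prior ones, with Benjamini-Hochberg adjustment over all genes. In injured against control muscle, subpopulations stood in for replicates. The p-values thus set the mean injury change against its spread between subpopulations, moderated by that of all genes. They hold no spread between mice. In the contrasts between subpopulations, the states stood in for replicates, and the same residual spread was used. The limma fit of injured against control muscle was also run on simulated counts, in which injury changed a gene equally in every subpopulation. That setting had no library missing well-measured genes and no opposite changes, so it says nothing about the fit under those conditions. Other steps used Python 3.11.15, pandas 2.3.3, scipy 1.17.1 and blastn 2.17.0. Alternatives were log2 of normalized count plus 1 or 0.5, another filter or none, other scalings, limma's variance trend, an unmoderated test, stricter or looser limits, no subpopulation block and leaving out each pair or library. The planned sign-flip test over 3 pairs had 2 pairs because counts were 0 in the third. Outside the members, companion lists name genes called in injured against control muscle and up to 4 with the highest mean; all lists are described by counts. Members and lists were chosen with earlier results of these data known.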

Additional observations from a re-analysis of the deposited data

Results flagged for a closer look

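Tap1, Psmb8 and Psmb9 were picked out because their differences between injured and control muscle had opposite directions in CD140a(-)/Sca1(+) and CD140a(+)/Sca1(+), each past 3-fold on the deposited log2 scale. The difference in CD140a(+)/Sca1(+) minus that in CD140a(-)/Sca1(+) was 3.83 for Tap1, 6.96 for Psmb8 and 4.75 for Psmb9. Each state of each subpopulation is 1 library, so this difference was not tested, and 0.625% of all genes tested showed the same pattern.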

How the results depend on the processing

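Of 190 alternatives to the summary results, 144 stayed within their limits, as did 139 of 187 for single members. The filter with variation, chosen after seeing the data, called 0 members higher and 1 lower in injured against control muscle, as without it. Beside these, 383 genes were higher and 604 lower of 14444. In CD140a(+)/Sca1(-) against the other 2 it called 3 members lower, beside 758 of the 14444 genes. Limits of p under 0.01 and 3-fold called 0 members in every contrast, as did the unmoderated test. In injured against control muscle, the count lower was 0 and the count higher 0 by quantile normalization, and 0 and 1 by median centring, which moved the members' median to 0.42; leaving out a pair gave 0 to 2 lower, 0 to 1 higher and medians of -1.04 to 0.42. Without the replicate block, that is without subpopulation as a term, 1 was lower and 0 higher, as with it. Against the other 2 subpopulations, CD140a(-)/Sca1(+) had 0 members higher with log2 of normalized count plus 0.5, with no filter and with median centring, and 0 to 3 when a library was left out. CD140a(+)/Sca1(-) had 4 lower with plus 0.5, with the filter on normalized counts and with the variance trend, 1 by quantile normalization, 0 with no filter and with median centring, and 0 to 6 when a library was left out. CD140a(+)/Sca1(+) had 0 to 3 higher when a library was left out. Of all genes, median centring called 90 higher and 250 lower, 1505 and 58, and 62 and 345 for the 3 subpopulations in that order. The main fit called 206 and 44, 102 and 579, and 205 and 73. Quantile normalization gave 206 and 96, 232 and 290, and 201 and 114. In CD140a(+)/Sca1(-), 1004 of 15532 genes were lower with plus 0.5 and 728 of 15532 with the variance trend. With the filter on normalized counts, which 9 of the 10 members passed, 676 of 10734 genes were lower there.

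The sign of 8 members in injured against control muscle turned under some settings. Median centring gave 0.63 for H2-K1, 0.10 for H2-D1, 0.50 for B2m, 0.29 for Tap1, 0.50 for Psmb8, 0.35 for Psmb9 and 0.69 for Nlrc5; quantile normalization gave 0.12 for Psmb8 and 0.33 for Nlrc5, and log2 of normalized count plus 1 or 0.5 gave 0.03 and 0.08 for Nlrc5. Without the CD140a(-)/Sca1(+) pair they were 0.62 for H2-K1, 0.30 for B2m, 0.36 for Tap1, 1.24 for Psmb8, 0.63 for Psmb9 and 0.47 for Nlrc5, and without the CD140a(+)/Sca1(-) pair 0.30 for Psmb8 and -0.52 for Psmb10. With 1 pair left out, the range was thus -0.84 to 0.62 for H2-K1, -0.61 to 0.30 for B2m, -1.55 to 0.36 for Tap1, -2.24 to 1.24 for Psmb8, -1.75 to 0.63 for Psmb9 and -0.52 to 2.87 for Psmb10. The cause was not tested. The subunit ratios, left with 1 pair, ran between -3.27 and 5.72 for Psmb8, -0.78 and 3.03 for Psmb9, and -3.28 and 3.76 for Psmb10. The within-subpopulation settings were chosen after seeing the data. The share of all genes past 3-fold in these settings is not given here, so the counts that follow show nothing particular to the members. At least 3-fold in injured CD140a(+)/Sca1(-), 2 members were higher and 5 lower with plus 1, 2 higher by quantile normalization, and 5 higher and 0 lower with median centring. In injured CD140a(+)/Sca1(+), 5 were higher with plus 1, and 2 lower by upper-quartile scaling and median centring; in CD140a(-)/Sca1(+) no count moved by over 1.5 times.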
